A study of Mus musculus with 42 samples.

Results

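Gata6, Gata4, Sox17, Sox7, Foxq1, Pdgfra, Dab2 and Cubn are genes associated with the primitive endoderm, and their RNA was followed here in mouse embryonic stem cells. The 8 genes were chosen by name. The choice was made with values in view, because Gata6, Cubn and Foxq1 had been seen to fall in the input RNA labelled Trim71KO in experiment 1. All comparisons within experiment 1 are therefore given as values without a test, and tests are given for experiment 2. All 8 genes were among the 18825 genes counted in experiment 1 and the 19866 counted in experiment 2, and all 8 passed the filter on low counts in both.

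The primitive endoderm is the extraembryonic layer that forms beside the pluripotent epiblast in the mouse blastocyst and later gives rise to visceral and parietal endoderm. FGF signalling through ERK promotes its formation from the inner cell mass, the transcription factor Gata6 is required for it, and Nanog acts in the opposite direction. Embryonic stem cells derive from the epiblast, and cultures of them grown in serum and LIF are known to hold a minority of cells that express primitive endoderm genes. Gata6, Gata4, Sox17 and Sox7 are transcription factors of this lineage, Foxq1 is a forkhead transcription factor, Pdgfra is a receptor for platelet-derived growth factor, and Dab2 and Cubn (cubilin) act in endocytosis at the surface of endoderm cells.

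The study sequenced RNA from lysates (input) and RNA bound to anti-HA beads (IP) in 42 libraries, in 14 groups of 3. Every group was of the strain background 129S6/SvEvTac and carried the GFP_5xT71BS reporter and a stable FLAG-Cas9::T2A::Blasticidin transfection. Untagged cells had no further change, tagged cells carried HA-AVI-Tnrc6a, Trim71KO cells carried HA-AVI-Tnrc6a and Trim71-/-, and Ago2KO cells, in experiment 2 alone, carried HA-AVI-Tnrc6a and Ago2-/-. Tnrc6a is a protein that Argonaute proteins recruit to microRNA targets, Ago2 is an Argonaute, and Trim71 binds RNA and is expressed in stem cells. All cells were grown to confluency on gelatin in serum and LIF. The labels do not say whether a genotype is a single clone or several, so a difference between genotypes cannot be told apart from a difference between clones. The design text says only that cells were grown in triplicate, so p-values measure the spread between these dishes.

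Libraries held 12587257 to 23657840 counts in experiment 1 and 16296447 to 21026552 in experiment 2. Ago2 input RNA was lower in the Ago2KO libraries (162 ± 4.76 CPM, against 353 ± 34.9 in tagged cells; SD, n = 3), where CPM is the count scaled to library size by TMM. Trim71 input RNA was higher, not lower, where the label says Trim71KO (377 ± 9.61 against 282 ± 23.5 CPM in experiment 2), so RNA level does not check that label. Tnrc6a input RNA was 87.9 ± 5.45 CPM in tagged, 114 ± 3.21 CPM in Trim71KO and 116 ± 2.98 CPM in Ago2KO cells. Pou5f1 and Nanog, core regulators of pluripotency, were at 1435 ± 89.5 and 752 ± 5.90 CPM in tagged inputs of experiment 2 (n = 3). In bulk RNA, fewer cells of a type and less RNA per cell cannot be told apart, and this holds for every level below.

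Gata4 and Sox7 both lie on chromosome 14, 672 kb apart in GRCm38.p6. The other members lie on chromosomes 18 (Gata6), 1 (Sox17), 13 (Foxq1), 5 (Pdgfra), 15 (Dab2) and 2 (Cubn). Promoter windows of Dab2, Cubn and Pdgfra were searched, and those of Dab2 and Cubn, which act in endocytosis, are shown. The RNAs of Dab2, Cubn and Pdgfra were called lower under both knockout labels, as were those of Gata6 and Foxq1. Windows of Gata6, Foxq1 and the other members are not given here. The windows are the 249 bases before the start in RefSeq's GRCm38.p6 models, at chr15:6299539-6299787 on the plus strand for the first Dab2 start and at chr2:13491878-13492126 on the minus strand for Cubn. Capitals mark matches to the GATA motif, searched on both strands as AGATAA or AGATAG and as TGATAA or TGATAG.
Dab2: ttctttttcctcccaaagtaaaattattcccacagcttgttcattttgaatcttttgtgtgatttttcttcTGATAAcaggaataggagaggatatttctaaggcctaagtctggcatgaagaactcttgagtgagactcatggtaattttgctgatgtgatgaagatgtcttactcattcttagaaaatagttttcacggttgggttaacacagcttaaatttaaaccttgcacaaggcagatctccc
Cubn: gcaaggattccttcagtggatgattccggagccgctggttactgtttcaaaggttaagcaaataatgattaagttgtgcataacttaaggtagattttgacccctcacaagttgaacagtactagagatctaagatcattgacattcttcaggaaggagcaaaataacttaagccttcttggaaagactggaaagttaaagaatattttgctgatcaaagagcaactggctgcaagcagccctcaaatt
The Dab2 window held 1 match, TGATAA, and the Cubn window held 0. The window of a second Dab2 start and the Pdgfra window, which lies inside the gene's annotated span, are not shown and also held 0. Among 32851 promoter windows of the same length, 26.5% held at least 1 such match. The SOX motif, searched as ATTGTT and ATTGTC on both strands, was found in 15.8% of all windows and in none of these 4. A match is a description of letters, not a site of binding.

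In experiment 1, whose tables were normalised apart from those of experiment 2, 7 of the 8 genes stood at least 2-fold lower in input RNA labelled Trim71KO than in tagged input. Of all 18772 genes, 2.86% stood that low, and nothing is read from this count because this contrast took part in choosing the genes. Gata6 was at 11.4, 8.89 and 11.7 CPM in the tagged inputs and at 0.406, 0.264 and 0.575 CPM in the Trim71KO inputs. Its log2 difference of -4.66 (SE 0.23) was the largest of the 8. Cubn was at 1.51, 0.837 and 1.11 CPM and Foxq1 at 0.580, 0.440 and 0.708 CPM in the Trim71KO inputs, against 8.72 to 18.3 CPM and 4.55 to 6.39 CPM in tagged inputs. Cubn differed by -3.60 and Foxq1 by -3.19, followed by Pdgfra at -2.89, Sox17 at -2.86, Dab2 at -2.73 and Gata4 at -1.69. Sox7 stood apart at -0.42 (SE 0.23), with 4.12, 4.36 and 3.97 CPM in tagged and 3.42, 2.42 and 3.50 CPM in Trim71KO inputs. The sum of the 8 genes was 70.6 to 92.6 CPM in tagged, 80.1 to 82.9 CPM in untagged and 13.4 to 16.0 CPM in Trim71KO inputs. The tagged inputs were uneven: replicate 2 held 8.72 CPM of Cubn, against 18.3 and 14.2 CPM in replicates 1 and 3. Leaving out any 1 of the tagged or Trim71KO inputs kept the count at 7 of 8. Nothing is read from this either, because this contrast took part in choosing the genes.

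**Figure D1:**
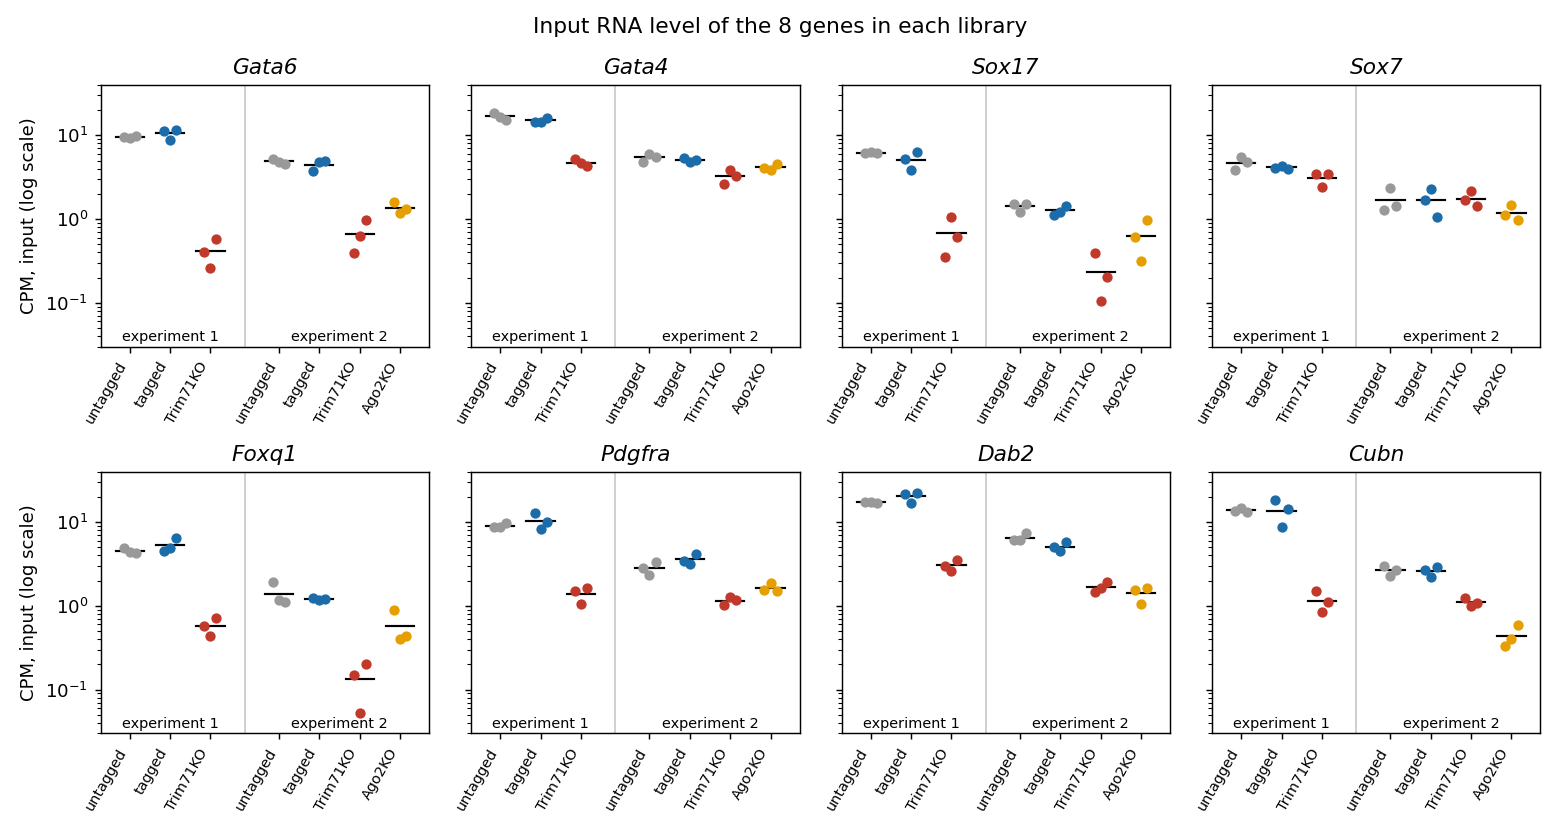
Input RNA of each of the 8 genes in CPM on a log scale, 1 point per library and a bar at the group mean (n = 3), with genotypes on the horizontal axis and experiments side by side. The 3 Trim71KO points lie under the 3 tagged points of the same experiment for every gene, except for Sox7 in experiment 2.

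In experiment 2, 7 of the 8 genes were again lower in Trim71KO input, by the test across all genes, while Sox7 was not. The background was 13.7% of 19778 genes called lower at an edgeR adjusted p under 0.05. All 7 had every Trim71KO library under every tagged library, as did 21.2% of all genes. The median log2 change was -1.62 over the 8 genes and -0.01 over all genes tested. Gata6 was 6.68-fold lower and Gata4 1.58-fold lower.

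Among the transcription factors, Gata6 was at 3.75, 4.75 and 4.89 CPM in tagged inputs and at 0.393, 0.633 and 0.966 CPM in Trim71KO inputs. Every Trim71KO library lay under every tagged library, and the log2 change was -2.74 (SE 0.25, edgeR adjusted p 4.08e-09). Foxq1 was at 1.23, 1.17 and 1.21 CPM in tagged inputs and at 0.147, 0.0527 and 0.203 CPM in Trim71KO inputs, which rest on 3, 1 and 4 counts. The groups did not overlap, and the log2 change was -3.09 (SE 0.44, edgeR adjusted p 4.97e-06), with the low counts leaving its size uncertain. Sox17, a SOX factor of the endoderm, went from 1.13, 1.23 and 1.45 CPM to 0.393, 0.105 and 0.203 CPM (log2 change -2.39, SE 0.51, edgeR adjusted p 0.000753).

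Gata4 moved less. It was at 5.43, 4.80 and 5.08 CPM in tagged and 2.61, 3.85 and 3.25 CPM in Trim71KO inputs, again without overlap (log2 change -0.66, SE 0.16, edgeR adjusted p 0.00272). Sox7, also on chromosome 14, was at 1.68, 2.29 and 1.06 CPM in tagged and 1.67, 2.16 and 1.42 CPM in Trim71KO inputs. These groups overlapped, and the change of 0.07 (SE 0.28) did not pass the test (edgeR adjusted p 0.887).

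The receptor Pdgfra was at 3.45, 3.20 and 4.11 CPM in tagged and 1.03, 1.27 and 1.17 CPM in Trim71KO inputs (log2 change -1.63, SE 0.22, edgeR adjusted p 3.1e-06). Dab2, an endocytic adaptor, went from 5.08, 4.48 and 5.76 CPM to 1.47, 1.64 and 1.93 CPM (log2 change -1.60, SE 0.23, edgeR adjusted p 5.49e-06). Cubn, which encodes the endocytic receptor cubilin, went from 2.71, 2.19 and 2.90 CPM to 1.23, 1.00 and 1.07 CPM (log2 change -1.24, SE 0.33, edgeR adjusted p 0.00618). None of these 3 pairs of groups overlapped. The sum of the 8 genes was 24.1 to 26.5 CPM in tagged and 8.95 to 10.7 CPM in Trim71KO inputs, and 10.55 to 11.97 CPM in the Ago2KO inputs described next.

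In Ago2KO input, 5 of the 8 genes were called lower than in tagged input, against 2.57% of all genes, and the median log2 change was -1.10. Every Ago2KO library lay under every tagged library for 7 of the 8, all but Sox7, as for 13% of all genes. Cubn moved most, from 2.71, 2.19 and 2.90 CPM in tagged to 0.334, 0.407 and 0.584 CPM in Ago2KO inputs, a log2 change of -2.53 (SE 0.39, edgeR adjusted p 8.8e-05). Dab2 fell to 1.56, 1.04 and 1.65 CPM (-1.86, SE 0.23, edgeR adjusted p 6.39e-06), Gata6 to 1.62, 1.18 and 1.31 CPM (-1.71, SE 0.22, edgeR adjusted p 7.22e-06) and Pdgfra to 1.56, 1.86 and 1.51 CPM (-1.12, SE 0.21, edgeR adjusted p 0.000903). Foxq1 was called at 0.891, 0.407 and 0.438 CPM (-1.08, SE 0.33, edgeR adjusted p 0.0446), but the call was lost in 5 of 6 fits that each left out 1 library, with an adjusted p of up to 0.212. Those 5 left out any of the 3 tagged inputs, or Ago2KO input replicate 2 or 3. Sox17, at 0.613, 0.317 and 0.973 CPM, had a change of -1.01 (SE 0.42) that was not called (edgeR adjusted p 0.17). Gata4, at 4.12, 3.85 and 4.53 CPM (-0.29, edgeR adjusted p 0.299), and Sox7, at 1.11, 1.49 and 0.973 CPM (-0.47, edgeR adjusted p 0.408), were not called either.

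The 2 knockouts share the tagged inputs, so they were also set against each other directly, a comparison added after the data were seen. 3 of the 8 genes differed, against 28.4% of all genes. Foxq1 was lower in Trim71KO than in Ago2KO input (log2 change -2.01, SE 0.50, edgeR adjusted p 0.00305), and so was Gata6 (-1.03, SE 0.29, edgeR adjusted p 0.00911). Cubn was higher in Trim71KO, at 1.23, 1.00 and 1.07 CPM against 0.334, 0.407 and 0.584 CPM (1.29, SE 0.43, edgeR adjusted p 0.0262). The Gata6 call was lost without Trim71KO input replicate 1 (adjusted p 0.0784). The Cubn call was lost without Trim71KO input replicate 1 or Ago2KO input replicate 1 or 2 (adjusted p up to 0.0863). Sox17 was at -1.39 (edgeR adjusted p 0.0671) and was called by DESeq2, and the others were not called.

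Untagged inputs of experiment 2 held 4.49 to 5.29 CPM of Gata6, 4.82 to 6.07 CPM of Gata4, 6.07 to 7.38 CPM of Dab2 and 2.34 to 3.34 CPM of Pdgfra. Cubn was at 2.29 to 3.02, Sox17 at 1.22 to 1.53, Sox7 at 1.27 to 2.34 and Foxq1 at 1.10 to 1.91 CPM there. 0 of the 8 were called between tagged and untagged input by edgeR, 0 had an unadjusted p under 0.05, and DESeq2 called 0, against 1.39% of all genes by edgeR. Log2 differences ran from -0.35 for Dab2 to 0.33 for Pdgfra in experiment 2, and from -0.27 to 0.24 in experiment 1.

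**Figure D2:**
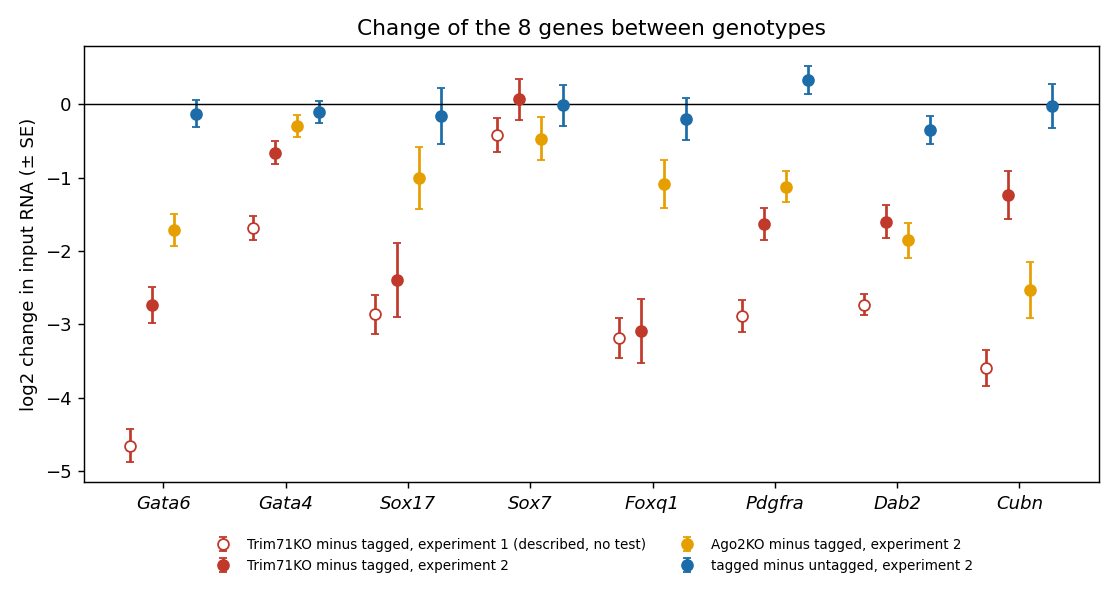
Log2 change in input RNA of each gene with its SE, for Trim71KO against tagged cells in both experiments, Ago2KO against tagged cells, and tagged against untagged cells; open points are experiment 1, which has no test. Gata6 lies at -4.66, -2.74 and -1.71 in the knockout comparisons, Sox7 stays between -0.47 and 0.07, and the tagged against untagged points lie between -0.35 and 0.33.

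Per kb of gene length, Gata4 was the most abundant of the 8 in tagged inputs of experiment 2 at 1.31 ± 0.0801 CPM per kb (SD, n = 3). Dab2 (0.696 ± 0.0869), Gata6 (0.686 ± 0.0954) and Sox7 (0.509 ± 0.186) followed and did not differ beyond their spread, nor did Sox7 and Pdgfra. Pdgfra stood at 0.358 ± 0.0469, Sox17 at 0.266 ± 0.0341, Foxq1 at 0.249 ± 0.00617 and Cubn at 0.174 ± 0.0248 CPM per kb, and Sox17 and Foxq1 lay within each other's spread. In Trim71KO inputs the order became Gata4 (0.829 ± 0.160), Sox7 (0.531 ± 0.114), Dab2 (0.229 ± 0.0316), Pdgfra (0.115 ± 0.0117), Gata6 (0.102 ± 0.0442), Cubn (0.0736 ± 0.00781), Sox17 (0.0490 ± 0.0307) and Foxq1 (0.0278 ± 0.0157). Gata6 thus passed from the third place to the fifth, within the spread of its neighbours Pdgfra and Cubn, and Sox17 lay within the spread of Cubn and of Foxq1.

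Across the 21 input libraries, each experiment centred on its own mean, the 8 genes varied together apart from Sox7. The Pearson correlation of log2 CPM had a median of 0.931 (0.875 to 0.979) over the 21 pairs without Sox7 and of 0.425 (0.301 to 0.523) over the 7 pairs with it. These are descriptions over libraries that share genotypes, and the groups that chose the genes are among them. Genes outside the list that were among the most like Gata6, of 15846 genes, included Txnip (0.963), Car4 (0.946), Cacng7 (0.946) and Cops7a (0.945). These were taken from genes of at least 1 CPM. Of the members, Foxq1 (0.979), Pdgfra (0.972), Dab2 (0.964), Sox17 (0.945), Gata4 (0.944), Cubn (0.923) and Sox7 (0.421) stood in that order of likeness to Gata6. Foxq1 and Sox17 fell under the limit of 1 CPM and were not among the 15846 genes. Car4, a carbonic anhydrase, had a log2 change of -2.18 (SE 0.28, edgeR adjusted p 1.06e-06) in Trim71KO input of experiment 2, and of -0.44 (adjusted p 0.283) in Ago2KO input. By rank correlation Car4 and Cops7a were again among the 5 most alike.

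IP libraries measure which RNAs the anti-HA beads recover. Enrichment subtracts the reference genotype's log2 IP to input ratio from that of the genotype under study. Pdgfra was the 1 member of 8 called for tag-specific enrichment, tagged against untagged cells, in experiment 2, where 18.9% of all genes were called higher. Its IP levels were 2.41, 2.38 and 1.99 CPM in untagged cells, and 9.01, 8.08 and 8.33 CPM in tagged cells. The untagged and tagged IP groups did not overlap, and the enrichment was 1.57 (SE 0.27, edgeR adjusted p 5.2e-05), with 1.67 (SE 0.24) in experiment 1, where IP levels were 8.21, 8.10 and 10.9 CPM in untagged and 38.4, 26.7 and 34.1 CPM in tagged cells.

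Pdgfra was also over its input in IP of both knockouts. Its IP level was 4.51, 3.21 and 4.02 CPM in Trim71KO and 6.58, 4.51 and 3.60 CPM in Ago2KO cells of experiment 2. The log2 ratios of its IP to its input were -0.34 (untagged), 1.23 (tagged), 1.76 (Trim71KO) and 1.57 (Ago2KO). Foxq1 was at 1.23, 1.77 and 2.16 CPM in untagged and 2.55, 2.55 and 2.39 CPM in tagged IP of experiment 2. It had ratios of 0.31, 1.04, 2.33 and 1.30 in the same order, and its tag-specific enrichment of 0.73 (SE 0.39) was not called (edgeR adjusted p 0.177). Its Trim71KO ratio (SE 0.49) rests on 8 counts over the inputs, against 35 over the IP libraries, so its size is uncertain. In experiment 1 its ratios were 0.30 (untagged), 1.34 (tagged) and 1.55 (Trim71KO). Gata6 was at 8.58, 10.5 and 9.79 CPM in untagged and 19.5, 17.1 and 23.4 CPM in tagged IP of experiment 1, and at 4.56 to 4.77 and 4.10 to 5.18 CPM in experiment 2. Its tag-specific value was 0.89 (SE 0.21) in experiment 1 and 0.15 (SE 0.26) in experiment 2, and the difference between experiments was not tested. Dab2 was at -0.99 (SE 0.17) in experiment 1, where untagged IP held 34.8, 38.5 and 31.9 CPM and tagged IP held 19.3, 21.7 and 21.5 CPM, and at 0.52 (SE 0.27, edgeR adjusted p 0.166) in experiment 2. Gata4 was at -0.05 and -0.09, Cubn at -0.47 and -0.27, Sox17 at 0.13 and 0.29, and Sox7 at 0.94 and -0.38, in experiments 1 and 2.

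No member was called for a change of enrichment in either knockout. For Trim71-dependent enrichment in experiment 2 edgeR called 0 of the 8, against 1.49% of all genes; 2 had an unadjusted p under 0.05, Foxq1 at 1.29 (SE 0.57) and Sox7 at 0.89 (SE 0.40), and DESeq2 called 0. For Ago2-dependent enrichment edgeR called 0 of the 8, against 4.16% of all genes, with 0 at an unadjusted p under 0.05 and 0 by DESeq2. The SE of the Ago2-dependent value was 0.89 for Cubn, whose change was 0.01. An SE taken from F is unstable for a change so near 0, so no limit of detection is read from it. Cubn rested on 27 counts over the Ago2KO inputs and 20 over the Ago2KO IP libraries, so a change could have been missed. Foxq1 rested on 8 counts over the Trim71KO inputs, which leaves the size of its Trim71-dependent value uncertain. In experiment 1 the Trim71-dependent values ran from -0.40 for Pdgfra to 0.76 for Cubn.

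**Figure D3:**
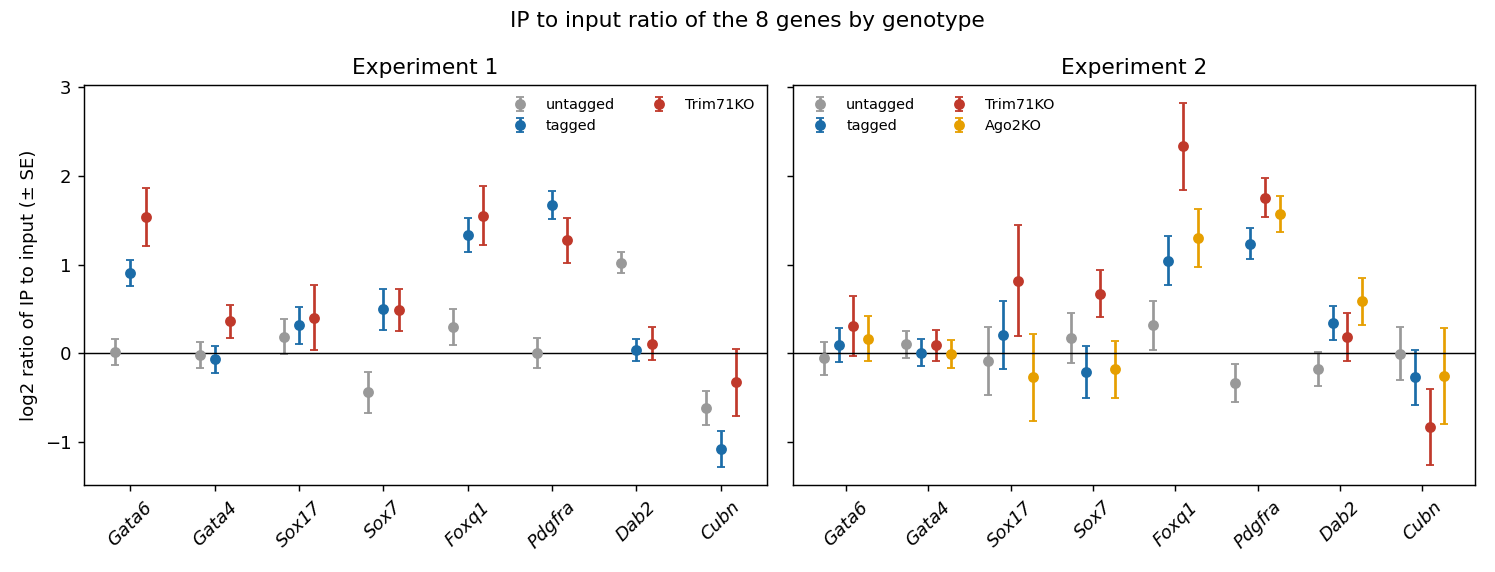
Log2 ratio of IP to input with its SE for each gene, by genotype, in experiment 1 and experiment 2; points above 0 are RNAs with more CPM in IP than in input. Pdgfra and Foxq1 are above their untagged points in every tagged genotype, and Gata4 stays close to 0 in experiment 2.

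Lists of related genes were read beside the 8. Of 9 visceral endoderm markers tested in experiment 2, 4 were lower and 0 higher in Trim71KO input, with a median log2 change of -0.77 against -0.01 over all genes. Of all genes, 13.7% were called lower and 13.5% higher there. The called genes were Foxa1 (-1.93, SE 0.45, edgeR adjusted p 0.0019), a forkhead factor, Hhex (-1.16, adjusted p 1.28e-05), a homeobox factor of the anterior visceral endoderm, Rbp4 (-0.77, adjusted p 0.00305), a retinol carrier, and Cited1 (-2.02, adjusted p 0.0241). In experiment 1 the differences of these genes, described without a test, were -0.59 for Foxa1 and -0.17 for Rbp4, with overlapping groups, -0.48 for Hhex and -1.28 for Cited1. The Cited1 call was lost without tagged input replicate 3 or Trim71KO input replicate 1 or 2 (adjusted p up to 0.126). Lrp2, a partner of cubilin, was at 7.57 ± 1.65 CPM in tagged and 7.33 ± 0.673 CPM in Trim71KO inputs (n = 3). In Ago2KO input edgeR called 0 of the 9, where 2.57% of all genes were called lower and 4.38% higher. Of the 9, 1 had an unadjusted p under 0.05, DESeq2 called 0, and their median was 0.08. Foxa2, Ttr, Afp, Apoa1, Ihh, Bmp2 and Cer1 were not found by name among the genes counted in experiment 2.

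The parietal endoderm and basement membrane list had 4 of 18 genes lower and 5 higher in Trim71KO input, and a median of 0.09. Of all genes, 13.7% were called lower and 13.5% higher there. Lamb1, a laminin chain (-0.71, edgeR adjusted p 0.000665), and Col4a2, a collagen IV chain (-0.63, adjusted p 0.00169), were among those lower, while Nid1, a nidogen (0.68, adjusted p 0.00218), and the keratin Krt8 (0.72, adjusted p 0.000611) were higher. In experiment 1 Lamb1 (-0.74), Col4a2 (-0.96) and Nid1 (1.21) had differences of the same sign, while Krt8 was at -0.14, with every Trim71KO library under every tagged library. The higher count was 2 without Trim71KO input replicate 1 or 3, and 3 without tagged input replicate 2 or with library size alone. In Ago2KO input edgeR called 6 of 18 lower and 0 higher, against 2.57% and 4.38% of all genes. At an unadjusted p under 0.05 there were 9 of 18 in either direction, and DESeq2 called 5 lower and 1 higher. A fit of those 2 groups alone gave 2 higher, and the median was -0.02. Col4a1 and Col4a2, which encode the 2 common chains of collagen IV, were at -0.98 (edgeR adjusted p 0.00152) and -1.08 (adjusted p 2.46e-05), and Srgn, the proteoglycan serglycin, at -3.05 (SE 0.54, adjusted p 0.000538).

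The FGF-ERK list, which feeds into primitive endoderm formation, had 4 of 11 genes higher and 1 lower in Trim71KO input of experiment 2, with a median of 0.28. Of all genes, 13.5% were called higher and 13.7% lower there. Spry4 (0.93, edgeR adjusted p 8.48e-05) and Dusp6 (0.56, adjusted p 0.000315), both feedback inhibitors of the pathway, and the ligand gene Fgf4 (0.58, adjusted p 0.000432) were higher. The direction did not hold across experiments for all of them. In experiment 1 Spry4 (0.56) and Fgf4 (0.66) were again higher, but Dusp6 was at -0.68 (SE 0.09) and Spred1, the other gene called higher in experiment 2 (0.35), at -0.34, both with every Trim71KO library under every tagged library. The list's median was -0.14 in experiment 1. The lower call, Etv5 (-0.17), was lost without any of the 3 tagged inputs, without Trim71KO input replicate 1 or 2, with RLE size factors, without the filter and with DESeq2. In Ago2KO input Etv4, an ETS factor (-0.55, adjusted p 6.78e-05), was the 1 gene of 11 called, and a fit of those 2 groups alone called 3 lower and 1, Fgf4, higher. The main fit called 2.57% of all genes lower and 4.38% higher in Ago2KO input.

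The pluripotency list had 9 of 12 genes higher and 1 lower in Trim71KO input, where 13.5% of all genes were called higher and 13.7% lower. In Ago2KO input it had 5 higher and 1 lower, where 4.38% of all genes were called higher and 2.57% lower. The list's medians were 0.34 in Trim71KO and 0.21 in Ago2KO input. Nanog went from 752 ± 5.90 CPM in tagged to 958 ± 30.4 CPM in Trim71KO and 948 ± 12.7 CPM in Ago2KO inputs (log2 changes 0.35 and 0.33, edgeR adjusted p 8.52e-05 and 0.000759). Sox2 and Klf2 were called higher in both. In experiment 1 the Trim71KO and tagged inputs overlapped for Nanog (log2 difference 0.014), Sox2 (-0.11), Klf2 (0.10) and Pou5f1 (0.0027). Over the whole list, the median in experiment 1 was 0.365, with 1 of 11 genes below 0, described without a test. The summed list there was at 6346 to 6481 CPM in tagged and 7583 to 7716 CPM in Trim71KO inputs. Pou5f1 was called higher in Trim71KO (0.22, adjusted p 0.00951), a call lost with library size alone and without tagged input replicate 3 or Trim71KO input replicate 2 (adjusted p up to 0.159), and was not called in Ago2KO (0.03). Dppa3 was the 1 gene lower in Trim71KO (-1.48, adjusted p 0.00696). Klf4 was the 1 gene lower in Ago2KO (-0.24, adjusted p 0.0251), a call lost without tagged input replicate 1 or 3 or Ago2KO input replicate 2 or 3 (adjusted p up to 0.111). The number higher in Ago2KO was 8 with a fit of those 2 groups alone.

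**Figure D4:**
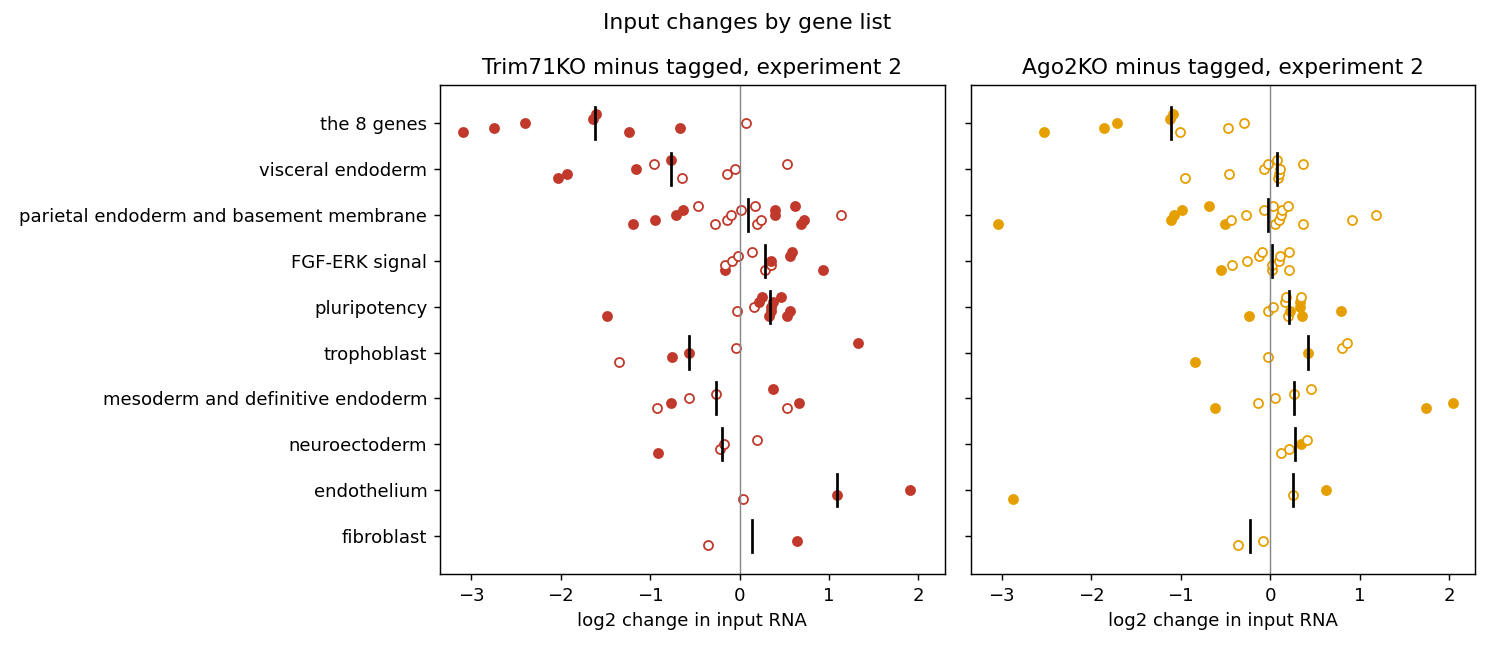
Log2 change in input RNA of experiment 2 for every tested gene of each list, with filled points for genes called by edgeR, open points for the rest and a vertical line at the list's median. The 8 genes have medians of -1.62 in Trim71KO and -1.10 in Ago2KO, while visceral endoderm markers have -0.77 and 0.08.

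Markers of other cell types that such a culture could hold were summed by list, and calls are those of edgeR in experiment 2. Of all genes, 13.7% were called lower and 13.5% higher in Trim71KO input. In Ago2KO input 2.57% were called lower and 4.38% higher. Markers not analysed, such as the trophoblast genes Cdx2, Elf5, Gata3 and Plac1, were not found by name among the genes counted. A sum carried mostly by 1 gene gives the level of that gene and does not measure a cell type. Summed trophoblast markers (5 of 9 analysed) were 17.96 to 20.4 CPM in tagged, 13.6 to 14.9 in Trim71KO and 19.1 to 22.2 in Ago2KO inputs. In Trim71KO input, Ascl2 (-0.76) and Tfap2a (-0.57) were called lower and Gata2 (1.32) higher. In Ago2KO input, Krt7 was called lower (-0.84) and Tfap2a higher (0.42), and both calls were lost without tagged input replicate 1 or 2 or Ago2KO input replicate 1 or 2, the Tfap2a call also with library size alone.

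Summed mesoderm and definitive endoderm markers (7 of 10 analysed) were 18.4 to 21.4, 19.4 to 24.1 and 21.9 to 23.4 CPM in tagged, Trim71KO and Ago2KO inputs. In Trim71KO input Mesp2 (-0.76) was called lower and Cxcr4 (0.67) and Eomes (0.38) higher, with 0 higher without Trim71KO input replicate 3 and 1 without tagged or Trim71KO input replicate 1. In Ago2KO input Mesp2 (-0.61) was called lower and Gsc (1.75) and Kdr (2.04) higher. The Mesp2 call there was lost without tagged input replicate 2 or 3 or Ago2KO input replicate 1 or 3, and the Kdr call without tagged input replicate 2 or 3 or Ago2KO input replicate 1.

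Summed neuroectoderm markers (4 of 6 analysed), mostly Tubb3, were 81.1 to 89.5, 80.4 to 93.7 and 98.6 to 109 CPM in the same order. Sox1, a SOX factor of the neural lineage, was called lower in Trim71KO input (-0.92, SE 0.13, edgeR adjusted p 4.15e-06), with -0.97 in experiment 1, and was not called in Ago2KO input (0.12). It was also called lower in tagged than in untagged input of experiment 2, where 1.39% of all genes were called. Tubb3 was called higher in Ago2KO input (0.35, edgeR adjusted p 0.00493).

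Summed endothelium markers (3 of 5 analysed), mostly Pecam1, were 53.1 to 57.6, 59.6 to 66.0 and 62.5 to 72.4 CPM. Tie1 and Emcn were not found by name among the genes counted. The other 2 analysed, Cdh5 and Tek, were both called higher in Trim71KO input (1.90 and 1.09, edgeR adjusted p 0.00391 and 5.29e-06), with 2.08 and 1.26 in experiment 1. In Ago2KO input Tek was called higher (0.63, edgeR adjusted p 0.0144), a call lost without tagged or Ago2KO input replicate 2. Cdh5, with 2 counts over the 3 Ago2KO inputs and 17 over the 3 tagged inputs, was called lower there (edgeR adjusted p 0.0473), a call lost in 5 of 6 fits that each left out 1 library, all but the fit without Ago2KO input replicate 2. With DESeq2, and with only the groups compared, 0 endothelium markers were called lower in Ago2KO input.

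The 2 fibroblast markers analysed of 7, Thy1 and Col1a1, summed to 34.2 to 35.8, 49.5 to 51.9 and 29.9 to 35.1 CPM. Most of the sum was Thy1. Col1a2, Col3a1, Dcn, Lum and Postn were not found by name among the genes counted. Thy1 was called higher in Trim71KO input (0.64, edgeR adjusted p 7.08e-05), with 1.36 in experiment 1. The part of these markers in the changes of the 8 genes was not tested.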

How the data were processed

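RNA was measured by stranded total RNA sequencing in 42 libraries. The authors deposited, per experiment, 1 table of unnormalised read counts with RPKM values, per the file headers, which also name QuasR in the gene length column. Per the submitters' processing notes, bcl2fastq 2.20 and STAR 2.7.3a were used with GRCm38 (mm10); counting rules are not given in the sources used here. RPKM values were not used.

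Tests used edgeR 4.0.16 (R 4.3.3) on the counts, with TMM, filterByExpr, a mean for each group and all groups of an experiment in 1 quasi-likelihood fit, with Benjamini-Hochberg adjustment over all 18772 or 19778 genes and calls at an adjusted p under 0.05. SE is the log2 change over the square root of F. CPM uses the TMM-scaled library. The filter and the fit were tested on simulated data. The 8 genes and the lists were chosen with earlier results of these data known. Named genes are the 8 members, up to 4 genes of each list by input level and up to 4 called, the 5 most like Gata6 among genes of at least 1 CPM (pseudocount 0.5 CPM; 1 is not reported here), and Trim71, Ago2 and Tnrc6a as label checks.

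Replicates differed by more than sampling noise in all 42 pairs within groups (chi-square per gene 2.87 to 64.1). Same-numbered tagged and Trim71KO libraries of experiment 2 deviated together (r 0.283, 0.355 and 0.416 for input, and 0.368, 0.271 and 0.387 for IP). Tagged and Ago2KO libraries did so less evenly (r 0.294, -0.000336 and 0.309 for input, and 0.668, 0.0933 and 0.506 for IP). Same-numbered input and IP libraries of 1 genotype in experiment 2 had r over 0.1 in 8 of 12 pairs (median 0.148, -0.013 to 0.333). The main fit, which gave the p-values and SEs above, held no pairing, so the enrichment tests did not use it either. For enrichment, a replicate block within each genotype was also fitted as an alternative. A block by replicate number, taken from the data and not the labels, was fitted as an alternative. Alternatives were RLE size factors, library size alone, no filter, DESeq2 1.42.0, only the groups compared, a replicate block, and leaving out each library.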

Additional observations from a re-analysis of the deposited data

How the results depend on the processing

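All 16 member results called in experiment 2 kept their direction, and 13 kept their call under every alternative that gave a value; the other 3 are Foxq1 in Ago2KO against tagged input and Gata6 and Cubn in Trim71KO against Ago2KO input, given above. With the replicate block, 7 members were called in Trim71KO against tagged input and 5 in Ago2KO against tagged input, and the replicate block changed no member's call in any comparison. Of 826 values of members compared, 46 values that were not called changed sign, and 0 called values reversed. Scaling moved the background: with library size alone, 65.4% of calls in Trim71KO input were lower against 50.4% with TMM, 48.9% against 37.0% in Ago2KO input, and 36.5% of tag-specific calls were higher against 68.4%, with the median of all genes at -0.24 there. Depth limits Foxq1 and Sox17, which rest on 8 and 14 counts over the 3 Trim71KO inputs of experiment 2. The groups cannot be told apart from clones.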
